A study of Canis lupus familiaris with 15 samples.

Results

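Primary osteosarcoma (OSA) of the limb was compared between 4 Greyhounds and 11 dogs of other breeds or of mixed breed, all 15 dogs being those of the array series whose breed the labels give. OSA is a malignant tumor of bone-forming cells that lay down osteoid, the unmineralised bone matrix, and it contains bone-resorbing osteoclasts, macrophages and vessels beside the tumor cells. Greyhounds are among the breeds in which the disease is well known, and OSA genomes of dogs and of people carry many gains and losses of chromosome segments. Every tumor was taken at amputation from a dog that had not yet received chemotherapy and was snap frozen. Every dog was afterwards given doxorubicin or a platinum drug. All Greyhounds but dog 223986 were given doxorubicin, and most of the other dogs were given a platinum drug.

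The Greyhounds were dogs 184844, 204714 and 223986, whose disease-free interval (DFI) was shorter than 100 days, and dog 208513, whose interval was longer than 300 days. The cohorts are called DFI < 100 and DFI > 300 after this interval. Values of the 4 Greyhounds are given in the order of dogs 184844, 204714, 223986 and 208513. They were 3 castrated males and 1 spayed female aged 6.63 ± 1.55 years (SD, n = 4, range 4.4 to 8), with 3 osteoblastic tumors and 1 giant cell tumor (dog 204714), and 2 tumors each in the forelimb and the hindlimb. The 11 other dogs were 5 mixed breeds, 2 Rottweilers, 2 Golden Retrievers, 1 Labrador Retriever and 1 Doberman, with 5 dogs in the DFI < 100 cohort and 6 in the DFI > 300 cohort. These were 6 spayed females and 5 castrated males aged 9.92 ± 2.33 years (SD, n = 11, range 5 to 13.4), with 8 osteoblastic, 2 giant cell and 1 poorly differentiated tumor, 7 of them in the forelimb and 4 in the hindlimb. The Greyhounds were younger by 3.29 years (exact permutation test over 1365 splits, two-sided p = 0.0234), so breed and age moved together in these dogs. Without dog 184844, the youngest dog of all, the age difference was 2.55 years (exact permutation p = 0.0962).

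Each tumor was measured on 1 Canine 2.0 array, and values are log2 of the deposited probeset intensity. A probeset is a group of probes for 1 transcript. The median intensity was 50.2 ± 2.5 in the Greyhound arrays and 51.7 ± 2.1 in the others (SD, n = 4 and 11). The log2 ratio of 3' to 5' control probesets, a measure of RNA integrity, was 2.21 ± 0.61 in Greyhounds and 1.89 ± 0.46 in other breeds (SD, exact permutation p = 0.292). It is the mean of a GAPDH and an actin ratio, and the actin ratio fell into 2 sets. It was 1.43 to 1.78 in Greyhound 184844 and in dogs 173175, 180223, 190030 and 193231, and 2.88 or more in every other dog. The cause of this split was not tested. A level of 6.79, the 95th percentile of the 64 reporter control probesets averaged over the arrays, set the genes to be described, and 14518 of 42860 probesets, standing for 6448 of 15115 named genes, had a mean over all dogs above it. MRM3 and NAA30 lay just above this level and SMYD3 and MFN2 just below it, at 6.79 each. Since the mean includes both groups, a transcript that is dim in most dogs passes only through those in which it is bright. The arrays were hybridised in 2 batches, but which dog was in which batch is not given in the sources used here, and no comparison within a batch was made.

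The tissue label was checked against defining markers. RUNX2, ALPL, IBSP, SPP1 and COL1A1, the osteoblast markers on the array except BGLAP, lay above the level, and COL1A1, the main collagen of bone, measured 13.01 to 13.20 in Greyhounds and 12.76 to 13.35 in other breeds. BGLAP (osteocalcin, a protein of mature osteoblasts) averaged below the level. Osteoclast markers ACP5, CTSK and MMP9, macrophage markers CD68, CD163 and CSF1R and endothelial markers PECAM1 and VWF were above the level as well. The osteoclast marker CALCR (mean 2.29) and the endothelial marker CDH5 (5.91) averaged below it. Markers of T cells (0 of 3), B cells (0 of 2), erythroid cells (0 of 2) and adipocytes (0 of 3) were not above it. In bulk tissue, fewer cells of a type and less RNA per cell cannot be told apart.

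No probeset differed between Greyhound and other tumors after adjustment. With DFI cohort as a covariate, 0 of 42860 probesets (0%) passed an adjusted p of 0.05 (limma, Benjamini-Hochberg), the smallest adjusted p was 0.596, and 2030 had an unadjusted p under 0.05, against 2143 that a uniform distribution of p would give. The unpaired two-sided test of the methods, run here with equal variances and no cohort term on the same values, also gave 0 after Benjamini-Hochberg and 1991 before it. The Greyhound tumors did not form a set of their own. Over the probesets above the level, the mean correlation was 0.819 for the 6 Greyhound pairs, 0.818 for the 44 pairs of a Greyhound and another dog, and 0.815 for the 55 pairs of other dogs. What follows describes differences at an unadjusted p, in which each named gene had an adjusted p of 0.968 or more unless another is given.

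Among the 14518 probesets above the level, 85 were more than 2-fold higher in Greyhounds at an unadjusted p under 0.05 (0.585%) and 41 were more than 2-fold lower (0.282%). Counting each gene by its brightest probeset, 194 of 6448 genes were higher (3.01%) and 76 were lower (1.18%) at an unadjusted p under 0.05. Of all 6448 genes, 3637 measured higher and 2811 lower in Greyhounds, with a median log2 difference of 0.05. After quantile normalization the split of genes was 153 higher and 103 lower, and their median difference was 0.01. Dog 208513 was the only Greyhound of the DFI > 300 cohort, and its contrast with the 6 other dogs of that cohort carried 31.4% of the weight of each difference. Without it, the same difference comes from 3 Greyhounds and 5 other dogs of the DFI < 100 cohort, and 119 genes were higher and 50 lower. With age as a further covariate, 123 probesets were more than 2-fold higher and 53 lower at an unadjusted p under 0.05, and 0 passed after adjustment.

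**Figure D1:**
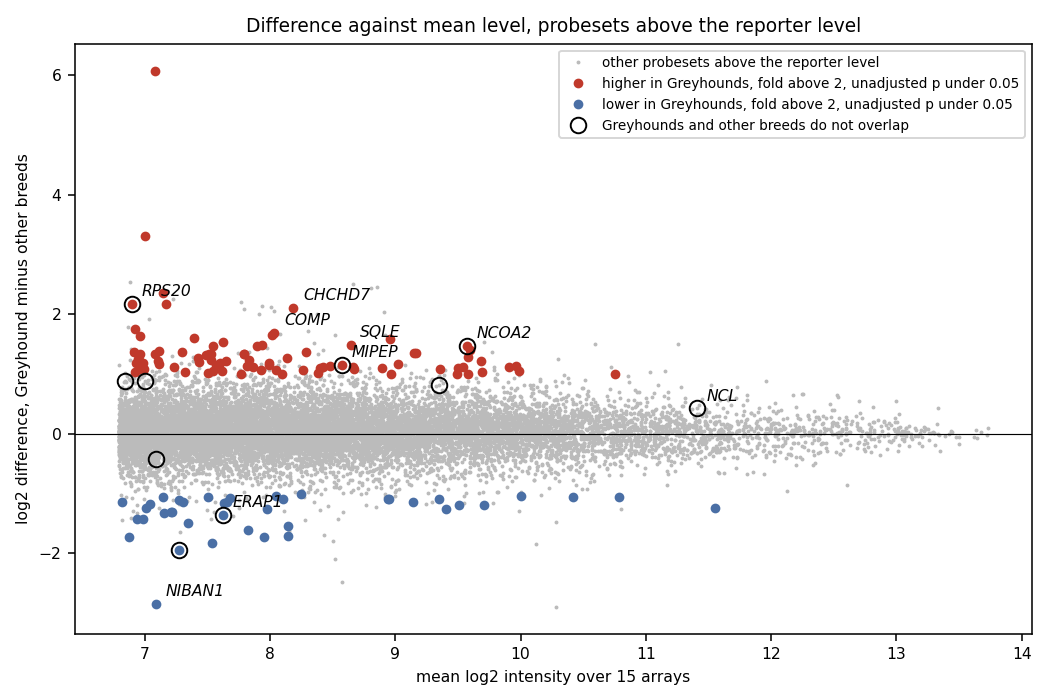
Log2 difference (Greyhound minus other breeds, vertical axis) of each of the 14518 probesets above the reporter level against its mean log2 intensity over the 15 arrays (horizontal axis). The 85 probesets more than 2-fold higher (red) and the 41 more than 2-fold lower (blue) at an unadjusted p under 0.05 are mostly dim, and rings mark the 10 in which Greyhounds and other breeds did not overlap.

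In 7 of the 14518 probesets (0.0482%) every Greyhound measured above every other dog, and in 3 (0.0207%) every Greyhound measured below every other dog. If the breed labels were placed at random, each of the 1365 splits of the dogs would be equally likely. A probeset would then separate the groups in a given direction in 1 of 1365 splits. Neither share was above 1 in 1365, so the genes without overlap are described here and not taken as traits of the breed. NCOA2, a coactivator of nuclear hormone receptors on chromosome 29, measured 10.51, 10.67, 9.78 and 11.37 in the Greyhounds, against a lowest, median and highest value of 8.63, 9.26 and 9.74 in other breeds. The lowest Greyhound, dog 223986, stood just above the highest other dog. The log2 difference was 1.48 ± 0.28 (SE, 2.78-fold, unadjusted limma p = 0.000103, adjusted p = 0.968). A further NCOA2 probeset above the level differed by −0.02, so the difference rested on 1 of 2 probesets.

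RPS20, a protein of the small ribosomal subunit whose gene is also on chromosome 29, measured 7.97, 8.11, 7.99 and 9.75 on a dim probeset, against 5.43, 6.50 and 7.33 in other breeds (lowest, median and highest, as in all such triplets). Dog 208513 was well above the 3 other Greyhounds, which lay close together and still above every other dog. The difference was 2.18 ± 0.41 (unadjusted p = 9.99e-05) on this probeset and 0.43 ± 0.17 (unadjusted p = 0.0272) on the brightest of the 6 RPS20 probesets above the level, where the Greyhounds had 13.70, 13.42, 13.41 and 13.86 and the other dogs 12.65, 13.33 and 13.66. All 6 probesets were higher in Greyhounds, the remaining 4 by 0.40 to 0.97. Ribosomal protein genes have processed copies elsewhere in the genome that can share probes, so the RPS20 values are uncertain in that respect.

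The other named genes without overlap were on chromosome 25, apart from ERAP1. MIPEP, a peptidase that trims proteins imported into mitochondria, measured 10.24, 9.22, 9.27 and 8.99 in Greyhounds and 7.55, 8.28 and 8.83 in other breeds, a difference of 1.16 ± 0.28, and its 3 probesets above the level differed by 1.16, 1.11 and 0.97. POLR3D, a subunit of RNA polymerase III, measured 8.11, 7.96, 7.39 and 7.24 against 6.17, 6.90 and 7.12, a difference of 0.89 ± 0.22, and with a mean of 6.76 in other breeds it passed the level only through the Greyhounds. NCL (nucleolin, a protein of the nucleolus that acts in ribosome assembly) measured 11.68, 11.74, 11.91 and 11.80 against 10.65, 11.36 and 11.62, a smaller difference of 0.43 ± 0.17 between groups that barely separated. ERAP1, the endoplasmic reticulum peptidase that trims peptides for MHC class I and lies on chromosome 3, was the only named gene in which all Greyhounds were below all other dogs: it measured 7.02, 7.21, 7.21 and 5.41 in Greyhounds and 7.45, 7.79 and 8.80 in other breeds, a difference of −1.36 ± 0.32. Dog 208513 was far below the other 3 Greyhounds, and without it the difference was −0.82. Of the 4 probesets without a gene symbol, 2 were higher in Greyhounds, by 0.82 and 0.89, and 2 were lower. One of the lower ones had the smallest adjusted p of all (0.596, limma) and measured 6.79, 5.89, 6.82 and 4.56 in Greyhounds and 6.95, 7.84 and 8.38 in other breeds.

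**Figure D2:**
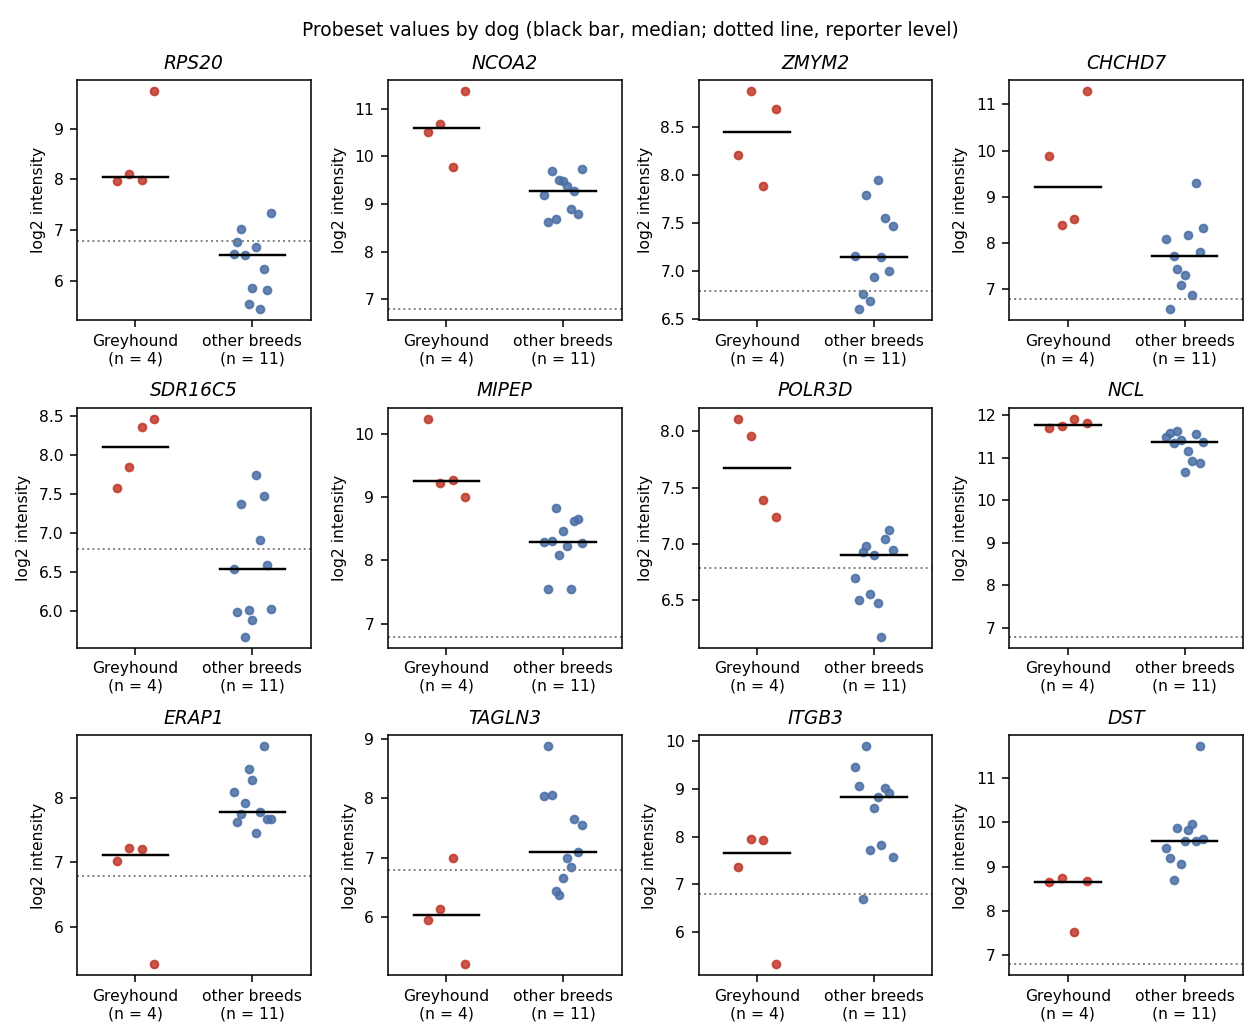
Log2 intensity (vertical axis) of 12 named genes in the 4 Greyhounds (red, left) and the 11 dogs of other breeds (blue, right), 1 point per tumor, with the median as a bar and the reporter level (6.79) as a dotted line. RPS20, NCOA2, MIPEP, POLR3D, NCL and ERAP1 separate the groups, and 1 Greyhound, dog 208513, lies apart in RPS20 (9.75) and ERAP1 (5.41).

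The leading higher genes were the 15 with the smallest p among genes more than 2-fold higher, and 7 of them were on chromosome 29, which holds 74 of the 6445 placed genes above the level. Among the 15, RPS20 (the dim probeset), SDR16C5 and CFAP300 had a mean below the level in other breeds, so they passed it only through the Greyhounds. Beside RPS20 and NCOA2, those on chromosome 29 were CHCHD7, a small protein of the mitochondrial intermembrane space, SDR16C5, a retinol dehydrogenase, ARFGEF1, which activates ARF proteins of the Golgi, TGS1, which modifies the cap of small nuclear RNAs, and TMEM68, an acyltransferase of lipid synthesis. CHCHD7 measured 9.88, 8.38, 8.52 and 11.28 in Greyhounds, against 6.57, 7.71 and 9.29 in other breeds, a difference of 2.10 ± 0.47 (4.3-fold, unadjusted p = 0.000548). SDR16C5 measured 7.58, 7.84, 8.36 and 8.46 against 5.67, 6.54 and 7.74, a difference of 1.63 ± 0.37. In both genes at least 1 other dog lay within the range of the Greyhounds. ARFGEF1, TGS1 and TMEM68 differed by 1.13, 1.37 and 1.19 over all dogs and by 0.66, 0.74 and 0.77 without dog 208513.

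Of the remaining higher genes, ZMYM2, a zinc finger protein of transcriptional repressor complexes on chromosome 25, measured 8.21, 8.87, 7.88 and 8.68 in Greyhounds and 6.60, 7.14 and 7.95 in other breeds. The difference was 1.33 ± 0.26 (unadjusted p = 0.000166), and over all alternatives it ranged between 1.11 and 1.47. A brighter ZMYM2 probeset differed by 0.89. NTAQ1, an N-terminal glutamine amidase, and RNF139, a ubiquitin ligase of the endoplasmic reticulum, both on chromosome 13, differed by 1.27 ± 0.37 and 1.17 ± 0.37, and NTAQ1 by 0.73 without dog 208513. COMP, a matrix protein of cartilage, measured 7.77, 8.28, 9.80 and 10.58 against 6.39, 7.48 and 9.03, a difference of 1.69 ± 0.50 in which dogs 223986 and 208513 were the high Greyhounds. CFAP300, a protein of ciliary dynein assembly, differed by 1.75 ± 0.54, BDH1, a ketone body dehydrogenase, by 1.22 ± 0.37, and ARL6IP1, a membrane-shaping protein of the endoplasmic reticulum, by 1.20 ± 0.37 on a dim probeset, while its 3 other probesets above the level differed by 0.04, 0.52 and 0.52.

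The leading lower genes after ERAP1 belonged to no single location. ERAP1, TAGLN3, GCHFR, TTC39C, C30H15orf61, SRSF12, TMEM135, YPEL5, QPCT and NIBAN1 had a mean below the level in Greyhounds and passed it only through the other breeds. LOC475707, which the annotation places on no chromosome, measured 9.31, 9.97, 9.73 and 9.95 in Greyhounds and 9.66, 10.74 and 11.55 in other breeds, a difference of −1.06 ± 0.30. TAGLN3, an actin-binding protein of neurons, measured 5.95, 6.14, 7.00 and 5.21 against 6.37, 7.09 and 8.87, a difference of −1.42 ± 0.43. DST (dystonin, a linker of the cytoskeleton) measured 8.65, 8.73, 7.52 and 8.67 against 8.70, 9.59 and 11.72, a difference of −1.08 ± 0.38 in which dog 223986 was the low Greyhound. The further DST probesets above the level differed by −0.68, −0.79 and −0.81. ITGB3, the integrin subunit through which osteoclasts and platelets bind matrix, measured 7.37, 7.94, 7.94 and 5.33 against 6.69, 8.82 and 9.89, a difference of −1.54 ± 0.58 that was −0.82 without dog 208513.

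NIBAN1, a stress-responsive regulator of translation, had the largest difference of the 15 (−2.84 ± 1.11), with values of 4.97, 5.74, 4.92 and 3.29 in Greyhounds and 4.50, 8.30 and 11.09 in other breeds. Its other probeset above the level differed by −0.65, and without dog 208513 the difference was −1.56. TMEM135, a protein of mitochondrial dynamics, differed by −1.83 ± 0.69 and by −0.60 without that dog, QPCT, which forms N-terminal pyroglutamate, by −1.62 ± 0.63 and −0.82, GCHFR, a regulator of tetrahydrobiopterin synthesis, by −1.06 ± 0.33 and −0.42, and TTC39C by −1.17 ± 0.37 and −0.51. The other 5 were LCP2, an adaptor of immune receptor signaling (−1.14), BEX4 (−1.09), SRSF12, a splicing factor (−1.31), C30H15orf61 (−1.24) and YPEL5 (−1.11), whose further probesets above the level differed by −0.42 and 0.88. Over the 30 leading genes, 14 had another probeset above the level, and 23 of these 25 probesets had the sign of the leading one, 16 with an unadjusted p under 0.05. Over all 14518 probesets above the level, 602 had an unadjusted p under 0.05 in either direction. The 30 genes were chosen by p in the same dogs and arrays, so this agreement is no independent check of them.

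Genes that measured higher in Greyhounds were unevenly spread over the chromosomes. The RefSeq annotation (assembly UU_Cfam_GSD_1.0, used for names and gene order) placed 6445 of the 6448 genes, and 26 of 39 chromosomes had a positive and 13 a negative median difference. At an unadjusted p under 0.05, against 3.01% of all genes, 18.9% of the 74 genes of chromosome 29 were higher, 18.4% of the 114 of chromosome 21, 15.7% of the 134 of chromosome 13, 15.3% of the 85 of chromosome 34 and 10% of the 120 of chromosome 25. On chromosome 3, 6.43% of 171 genes were lower, against 1.18% of all genes, and 141 of the 171 measured lower. Some genes in these shares passed the level only through the group in which they were brighter. Among the lower genes of chromosome 3, MACIR, ERAP1 and ARSK had a mean below the level in Greyhounds. Among the higher genes, SDR16C5, SPTY2D1, POLR3D, EIF4E2 and DVL3 had a mean below it in other breeds. The median log2 differences were 0.22 for chromosome 29, 0.21 for 21, 0.25 for 13, 0.22 for 34, 0.27 for 25 and −0.23 for 3, against 0.05 over all genes. Chromosome 35, with few genes above the level, had the highest median (0.34, 37 of 48 genes higher).

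**Figure D3:**
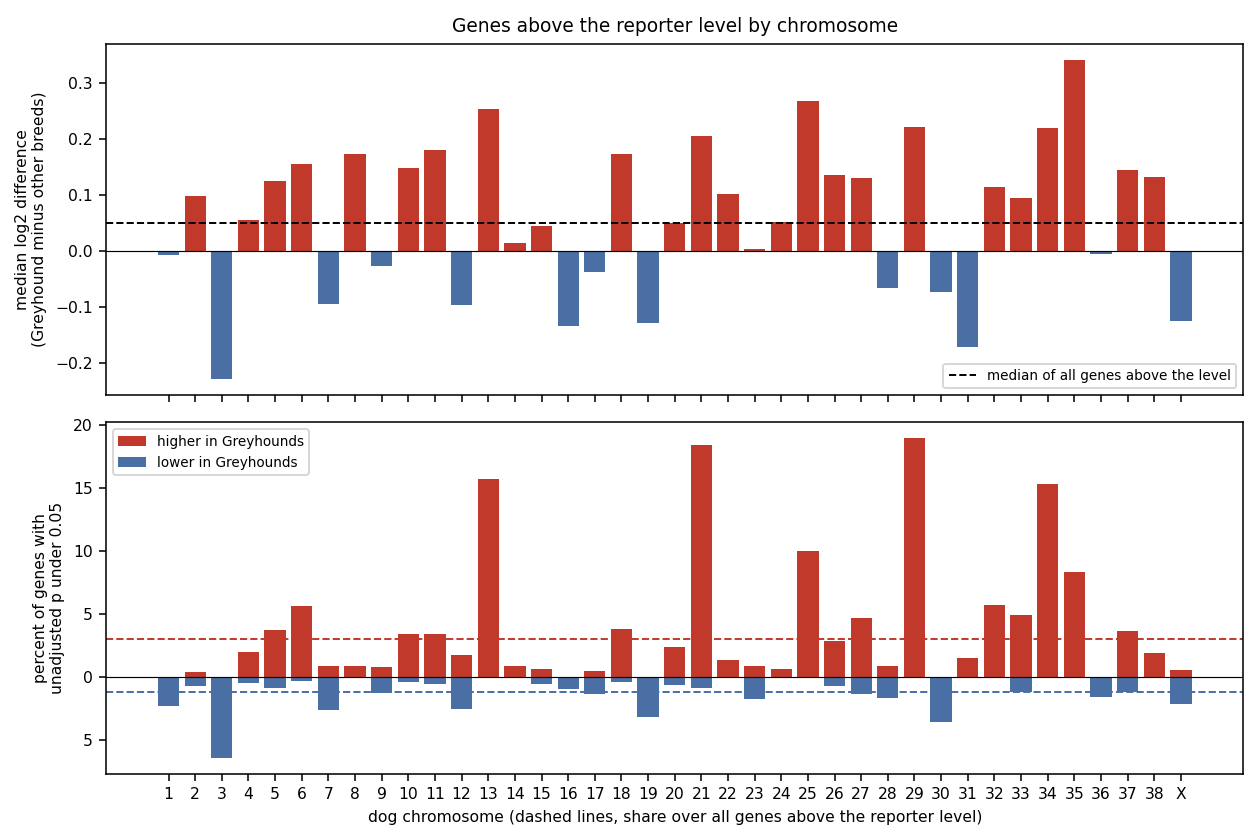
Median log2 difference (upper panel, Greyhound minus other breeds) and percent of genes higher (red) or lower (blue) in Greyhounds at an unadjusted p under 0.05 (lower panel) on each chromosome, with the values over all genes above the reporter level as dashed lines. Chromosomes 13, 21, 29 and 34 hold the highest shares of higher genes, 15.3% to 18.9%, and chromosome 3 has the lowest median and the highest share of lower genes.

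These chromosome values overlapped between the groups. After each gene was centred on its mean over all dogs, the genes of chromosome 13 averaged 0.40, 0.25, 0.34 and 0.05 in the Greyhounds and −0.58 to 0.51 in the other dogs. Chromosome 29 averaged 0.68, 0.06, −0.05 and 0.12 in Greyhounds and −0.62 to 0.35 in other dogs, and chromosome 3 averaged −0.24, 0.04, 0.01 and −0.35 in Greyhounds and −0.28 to 0.32 in other dogs. The medians of all 6 chromosomes kept their sign with each dog left out, while the counts moved with single dogs. The 6 were chosen by their values in the same dogs, so the kept sign is no independent check. It was not particular to them: the medians of chromosomes 5, 6, 10, 18 and 35, among others, kept their sign as well. On chromosome 13 the number of genes higher, 21 in all dogs, was 9 without dog 208513 and 33 without dog 208756. On chromosome 29 it was 5 without dog 208513, against 14, and the median was 0.10 without dog 184844. On chromosome 21 it was 10 without dog 184844, against 21, and on 34 it was 8 without dog 153599, against 13. On chromosome 25, with 12 in all dogs, it was 8 without dog 184844 or dog 208513 and 20 without dog 208911. The number of genes lower on chromosome 3, 11 in all dogs, was 6 without dog 208513, 19 without dog 223986 and 20 without dog 173175. With age as a covariate, 9 genes were higher on chromosome 21, 14 on 13, 14 on 29, 12 on 34 and 8 on 25. On chromosome 3, 6 genes were lower.

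Along the chromosomes, the 6445 genes were divided in order into 326 blocks of up to 20 neighbours. A positive median was found in 215 blocks and a negative one in 110. In 8 blocks at least 5 genes were higher at an unadjusted p under 0.05, and in 0 blocks were 5 or more lower. All 8 lay on chromosomes 13, 21, 29 and 34, with 2 on each, and in 0 of the 326 blocks did the dogs' mean values separate the groups.

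The highest of the 8 block medians was on chromosome 13, between MRPL13 and PHF20L1, where 19 of 20 genes measured higher and 12 passed the unadjusted p, with a median difference of 0.81. The block averaged 0.67, 0.06, 0.41 and 1.20 in the Greyhounds, against −0.80 to 0.58 in other dogs, so dog 208513 exceeded every other dog while dog 204714 lay within their range. The genes that passed included SQLE, the squalene epoxidase of cholesterol synthesis (1.59), ATAD2, a bromodomain ATPase of chromatin (0.99), DERL1, which acts in the disposal of misfolded proteins (0.71), and TATDN1, a deoxyribonuclease (1.01). The preceding block, DCAF13 to COL14A1, had a median of 0.64 and 8 genes higher, among them RAD21, a cohesin subunit (0.65), EIF3H, a translation initiation factor (0.66), and TRPS1, a transcription factor of the growth plate (0.92). MYC, the oncogene of this chromosome, measured 8.13, 6.36, 7.80 and 7.81 in Greyhounds and 5.40, 6.50 and 8.04 in other breeds. The difference was 0.75 ± 0.41 and did not pass (unadjusted limma p = 0.0901). It was 0.16 with age as a covariate, 0.38 without dog 208513 and 1.16 in osteoblastic tumors alone. MYC is given here although it was chosen after the values were seen.

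On chromosome 21, the block ADM to HPS5 had a median of 0.58 with 10 genes higher, and averaged 0.20, 0.21, 0.71 and 0.48 in Greyhounds and −0.72 to 0.59 in other dogs. Its higher genes included COPB1, a coat protein of Golgi vesicles (0.59), PSMA1, a proteasome subunit (0.64), and PIK3C2A, a phosphoinositide kinase (0.90). In the next block, GTF2H1 to MS4A7, 8 of 14 genes were higher, among them TSG101, a protein of endosomal sorting (0.66). The same chromosome also held the lowest block of all, ARHGAP42 to TMEM126A, with a median of −0.53. It averaged −0.88, 0.55, 0.65 and −1.72 in Greyhounds and −0.61 to 0.99 in other dogs, so the low values belonged to dogs 208513 and 184844.

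On chromosome 29, the block PRKDC to LOC482977, which holds RPS20, CHCHD7, TGS1 and TMEM68, had a median of 0.71 and averaged 0.57, −0.07, 0.11 and 1.20 in Greyhounds and −0.94 to 0.38 in other dogs. The block NSMAF to ELOC, which holds NCOA2 and ARFGEF1, had a median of 0.50 and averaged 0.67, −0.18, 0.38 and 0.36 in Greyhounds and −0.72 to 0.36 in other dogs. On chromosome 34, the block BRD9 to KLHL24 (0.54, 7 genes higher) averaged 0.68, −0.13, 0.34 and 0.39 in Greyhounds and −0.54 to 0.44 in other dogs, and it was followed by PARL to RTP2 (0.43, 5 genes higher). The higher genes there included PIK3CA, the catalytic subunit of phosphoinositide 3-kinase (1.07), MFN1, which fuses mitochondria (0.66), SDHA, the flavoprotein of succinate dehydrogenase (0.61), and RFC4, a clamp loader subunit of DNA replication (1.12). The 11 lower genes of chromosome 3 were spread along it and included, beside ERAP1, the lysosomal protease CTSH (−1.05), the tight junction protein TJP1 (−0.59) and the Notch effector RBPJ (−0.67).

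**Figure D4:**
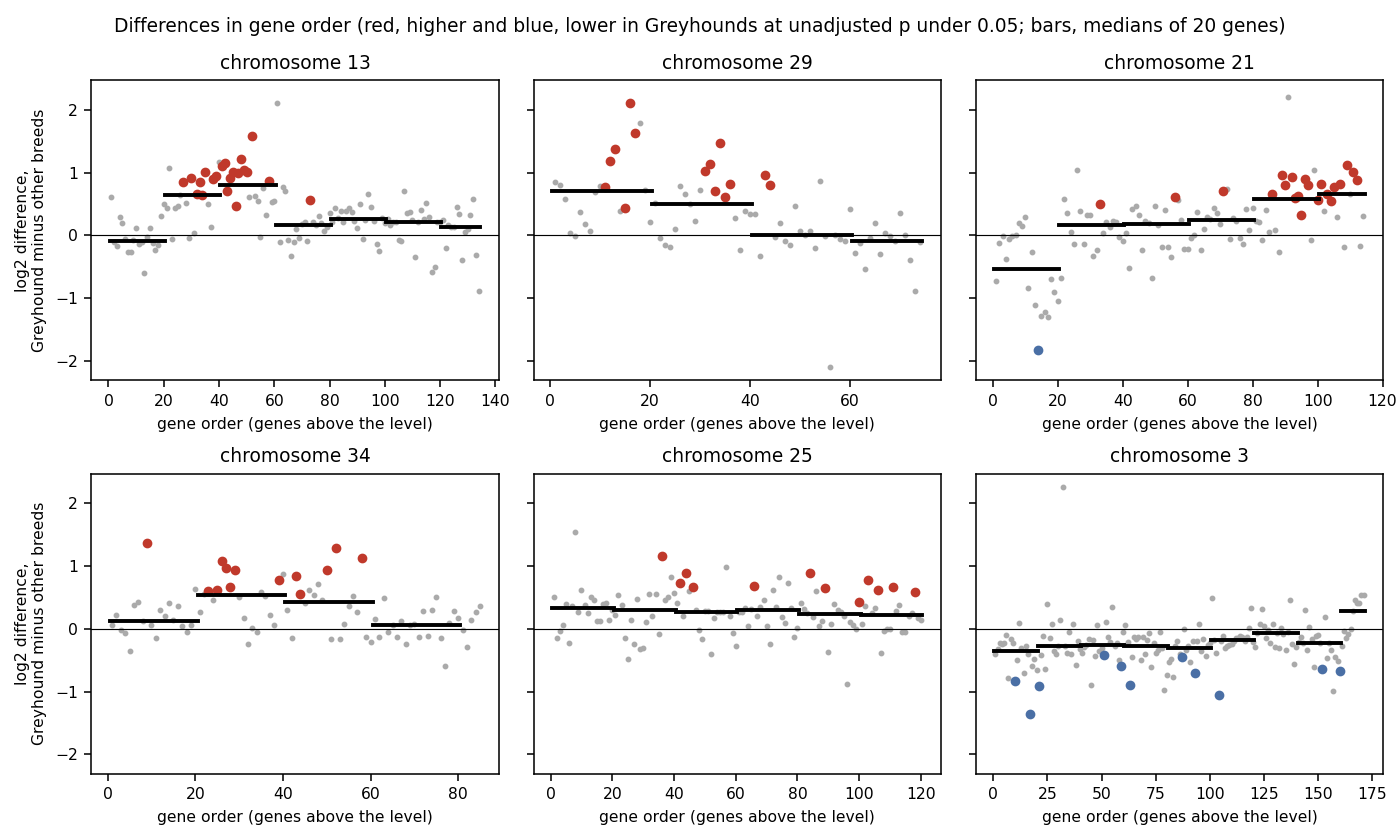
Log2 difference (Greyhound minus other breeds, vertical axis) of genes above the reporter level in their order along 6 chromosomes (horizontal axis), with genes higher (red) or lower (blue) at an unadjusted p under 0.05 and the median of each block of up to 20 genes as a bar. The red genes are grouped on chromosomes 13, 21, 29 and 34 and spread along chromosome 25, and most genes of chromosome 3 lie below 0.

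Gene lists for the cell types and pathways of this tumor are described by how many members above the level measured higher or lower, beside the same over all genes above the level, of which 56.4% measured higher and 43.6% lower, with a median of 0.05, 3.01% passing as higher and 1.18% as lower. Of the bone-forming list, 10 of 13 genes measured higher in Greyhounds (median 0.10) and 0 passed an unadjusted p of 0.05. IBSP (bone sialoprotein, a mineral-binding matrix protein) measured 13.16, 13.56, 10.52 and 12.09 in Greyhounds and 7.54, 11.27 and 12.94 in other breeds, 2.82-fold higher on average with an unadjusted p of 0.124, and RUNX2, the transcription factor that specifies osteoblasts, differed by 0.72 ± 0.47. COL1A1 differed by 0.10 ± 0.13. The groups overlapped in all 3 genes. Of the collagens and their processing enzymes, 19 of 33 measured higher (median 0.04, and −0.02 after quantile normalization), and 1 passed, LOX, which crosslinks collagen (1.65 ± 0.76, unadjusted p = 0.0486). Of 4 cartilage genes above the level, 3 were higher, COMP among them, and HAPLN1, which links aggrecan to hyaluronan, differed by 2.25 ± 1.74. The cartilage marker ACAN (aggrecan) measured lower, by −0.31 ± 1.44. The cartilage markers COL2A1 and SOX9 averaged below the level over all dogs. They measured higher in Greyhounds, by 3.98 ± 2.43 and 0.73 ± 1.09, and neither passed an unadjusted p of 0.05. COL2A1 measured 6.86 to 10.85 in Greyhounds and −7.61 to 10.35 in other breeds, so the groups overlapped.

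All 8 osteoclast genes measured lower in Greyhounds over all dogs (median −0.74), against 43.6% of all genes, and 1 passed, ITGB3 (12.5%, against 1.18%). This rested on dog 208513: the list averaged 8.66, 11.14, 10.45 and 6.12 in the Greyhounds and 7.16 to 11.57 in other breeds, and the median was 0.33 without that dog. ACP5, the tartrate-resistant acid phosphatase of osteoclasts, measured 8.85, 12.77, 11.57 and 1.01 in Greyhounds, against 5.28, 11.99 and 13.05 in other breeds, so dog 208513 was below every other dog and dog 204714 was near the top of their range. CTSK (cathepsin K, which degrades bone collagen) differed by −0.85 with and 0.20 without dog 208513, MMP9 by −0.64 and 0.38, and OSTM1, of the osteoclast chloride transporter, by −0.62 and −0.15.

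The macrophage and vessel lists depended on the same dog. Of the macrophage genes, 11 of 15 measured lower (median −0.20, but 0.43 without dog 208513 and 0.09 in osteoblastic tumors alone). CSF1R, the receptor that macrophages need for survival, differed by −0.78 with and 0.05 without it, and CD68 by −0.94 and 0.71. All 12 endothelial genes measured lower (median −0.40, and −0.04 without dog 208513), and 0 passed. Among them were PLVAP, of fenestrated vessels (−0.72 ± 0.45), CD34 (−0.52 ± 0.40) and the receptor TIE1 (−0.63 ± 0.50). In smooth muscle and pericyte genes, SMTN, a contractile protein (0.82 ± 0.30), and MCAM, an adhesion molecule of pericytes (0.87 ± 0.36), were higher at an unadjusted p under 0.05, while 6 of the list's 10 genes measured lower (median −0.13, and 0.18 without dog 208513).

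Of the genes of MHC class I presentation, which brings peptides of a cell's own proteins to its surface, 11 of 13 measured lower in Greyhounds (median −0.36) and 1 passed, ERAP1. B2M, the light chain of class I molecules, measured 13.05, 12.35, 13.07 and 12.06 in Greyhounds and 12.42, 12.92 and 13.32 in other breeds, a difference of −0.36 ± 0.22 between overlapping groups. Without dog 204714 the list's median was −0.08. The interferon response genes had no common direction (10 of 19 higher, median 0.07, 0 passing, range −0.11 to 0.62 over the alternatives), with USP18, an inhibitor of interferon signaling, at 0.90 ± 0.58 and PARP14 at −0.25 ± 0.15.

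Of the cell cycle genes, 27 of 36 measured higher in Greyhounds (75%, against 56.4% of all genes, median 0.30). At an unadjusted p of 0.05, 2 passed (5.56%, against 3.01% of all genes): MCM7, of the replicative helicase (0.65 ± 0.26), and RRM1, of ribonucleotide reductase (0.62 ± 0.27), whose gene is on chromosome 21. FOXM1, a transcription factor of dividing cells, measured 8.37, 7.80, 7.45 and 10.93 in Greyhounds and 6.09, 7.31 and 9.56 in other breeds, with a difference of 1.17 ± 0.69. The median turned to −0.13 without dog 208513, which had the highest mean of the 15 dogs. In the p53, RB and CDKN2 network, 10 of 13 measured higher (median 0.21, range 0.11 to 0.31 over the alternatives). CCND1 (cyclin D1, which drives entry into S phase) measured 9.20, 11.22, 9.89 and 9.10 against 8.34, 8.98 and 9.81, a difference of 0.94 ± 0.39 (unadjusted limma p = 0.0301). The CCND1 difference was 0.49 without dog 204714, 0.33 in osteoblastic tumors alone and 1.44 without dog 208513. RBL2, of the retinoblastoma family, differed by −0.59 ± 0.31.

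Of the cytosolic ribosomal proteins, 39 of 48 measured higher (81.2%, against 56.4% of all genes), by little (median 0.08, and 0.01 without dog 208513). At an unadjusted p of 0.05, 3 passed (6.25%, against 3.01% of all genes): RPS20, RPS13 (0.33 ± 0.15, on chromosome 21) and RPS15 (0.36). Of the cholesterol and fatty acid synthesis genes, 13 of 19 measured higher (median 0.29, and 0.07 without dog 208513). SQLE measured 9.70, 10.13, 9.00 and 11.65 in Greyhounds and 7.19, 8.42 and 10.68 in other breeds, a difference of 1.59 ± 0.66 (unadjusted p = 0.0297), and the lipogenic transcription factor SREBF1 differed by −0.32 ± 0.18. The oxidative phosphorylation genes were evenly divided (26 higher and 26 lower, median 0.00), with SDHA at 0.61 ± 0.19 and NDUFB11, of complex I, at −0.46 ± 0.21 passing in opposite directions. In TGF-beta and BMP signaling (13 of 24 higher, median 0.03, and −0.01 after quantile normalization), the ligand TGFB2 was higher (1.54 ± 0.59) and ID3, a target of BMP signals, was lower (−0.68 ± 0.31).

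In the other lists with at least 5 genes above the level, the medians lay between −0.24 and 0.38. They were lowest for the insulin-like growth factor axis (−0.24, 6 of 7 lower) and highest for chemokines and their receptors (0.38, 7 of 10 higher, but −0.22 with age as a covariate and −0.04 without dog 223986). The lists of matrix proteases and inhibitors (−0.05, 1 gene passing), matrix and integrin adhesion (0.01), WNT signaling (0.04), glycolysis and hypoxia (0.00), drug metabolism and transport (0.02), iron and heme handling (−0.04), heat shock and unfolded protein response (0.06), MHC class II presentation (0.01) and skeletal muscle (0.05) had medians near that of all genes over all dogs, and those of immediate early genes (0.13), complement and coagulation (−0.12) and neuronal and synaptic genes (−0.20) lay further from it, and 0 of their genes passed an unadjusted p of 0.05. Single dogs turned several of these medians. That of matrix proteases was 0.37 without dog 208513 and −0.36 without dog 223986, that of glycolysis −0.27 without dog 223986 and 0.17 without dog 184844, that of MHC class II −0.20 without dog 184844 and 0.15 without dog 208513, and that of immediate early genes 0.58 without dog 208513 and −0.16 without dog 223986. The median of complement and coagulation was 0.08 without dog 208513 and −0.41 without dog 212759, and that of neuronal genes −0.55 without dog 208513 and −0.02 without dog 204714.

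**Figure D5:**
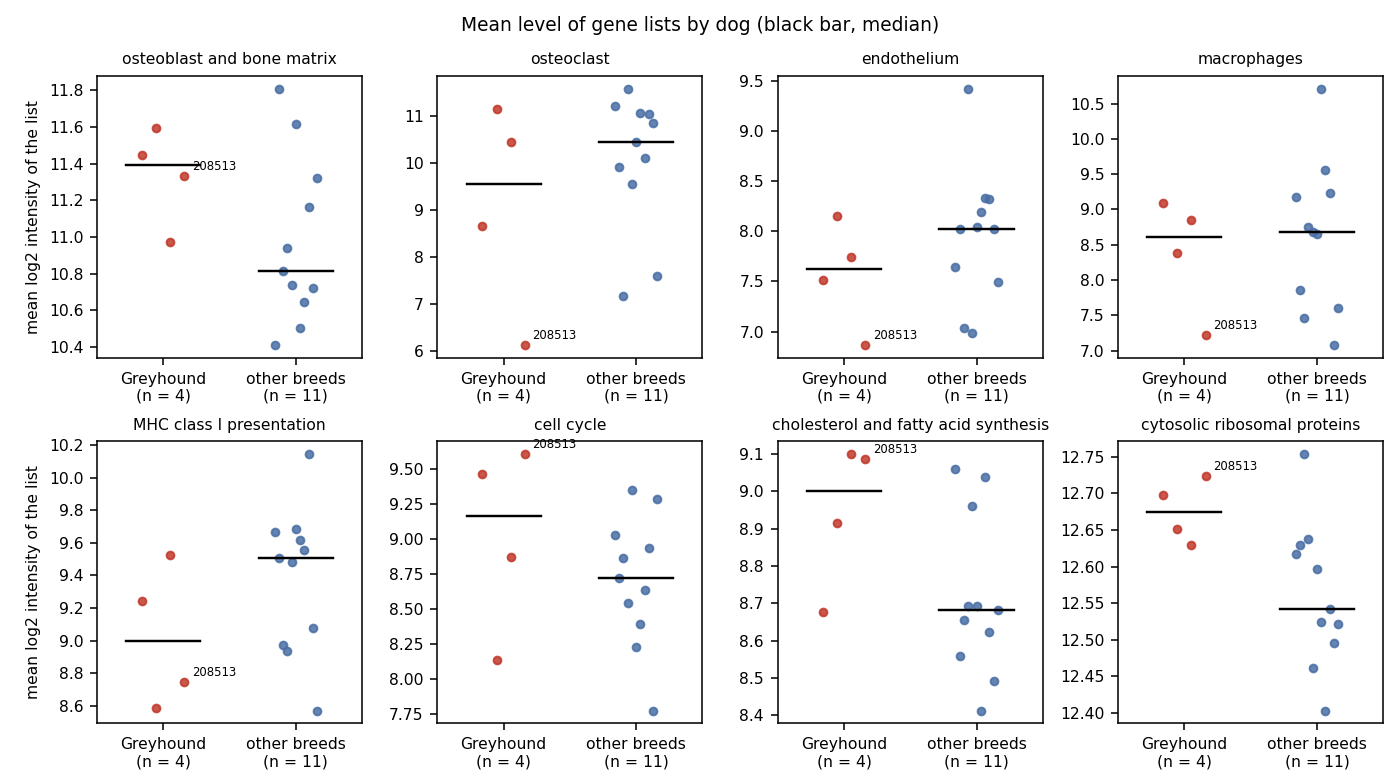
Mean log2 intensity (vertical axis) of the genes above the reporter level of 8 lists in the 4 Greyhounds (red, left, with dog 208513 named) and the 11 dogs of other breeds (blue, right), 1 point per tumor, with the median as a bar. The groups overlap in the lists shown, and dog 208513 is the lowest Greyhound for the osteoclast list (6.12).

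The 4 Greyhound tumors differed widely from each other in some genes. Among genes above the level, ACP5 had the widest range over the 4 Greyhounds (11.75 on the log2 scale), followed by ATP6V0D2, a proton pump subunit of osteoclasts, with 6.83, 11.02, 10.02 and 1.09. MMP3, a matrix metalloproteinase, measured 8.71, 6.60, 13.67 and 6.97 and was high in dog 223986, and PENK, an opioid precursor that bone-forming cells can express, measured 6.27, 5.80, 6.92 and 12.77 and was high in dog 208513. A probeset without a gene symbol, whose mean was above the level only through the dogs in which it was bright, measured 11.05, 13.40, 10.28 and 11.73 in Greyhounds and 2.40, 3.05 and 10.36 in other breeds (a difference of 6.08 ± 1.90, unadjusted p = 0.00637). All 4 Greyhounds were bright and most other dogs dim, but 4 other dogs measured near the lowest Greyhound; this probeset too was chosen after its values were seen.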

How the data were processed

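Tumor RNA of 15 dogs was hybridised to Affymetrix Canine 2.0 arrays after extraction with Trizol and column clean-up. The authors ran PLIER in Expression Console, left out 1 sample after pathology review and deposited 1 linear intensity value per dog for each of 43035 probesets. The sources used here do not say which dog was in which of the 2 batches, which tool versions were run or how the probes were normalized. The deposited intensities were turned to log2 without an offset, 175 control probesets were left out, and 42860 were fitted with limma 3.58.1 (R 4.3.3), with breed group and DFI cohort as terms and Benjamini-Hochberg adjustment over all of them. Genes were named from the platform annotation (29254 probesets with 1 symbol, 439 with several, which were not named, and 13167 with none), and their chromosome and order come from RefSeq (UU_Cfam_GSD_1.0).

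Breed and cohort were taken from the labels, and age, sex, limb and tumor subtype from the study's population table. In counts per gene and in lists, each gene was read from its brightest probeset. Genes named in the text were the 15 higher and 15 lower with the smallest p among probesets more than 2-fold different and above the reporter level, up to 3 members of each described list with the smallest p, the genes without overlap, and cell type markers. Genes of the chromosomes, MYC, RPS15, the genes variable among Greyhounds and the probesets with no symbol were added after their values were seen, as was the grouping by chromosome and block. Members and lists were chosen with earlier results of these data known. Nothing in the sources ties 2 samples to 1 dog, so p-values measure the spread between dogs. The fit was tested on simulated data. Alternatives covered covariates, dogs left out, normalization, the offset, the reporter level, the fold and the probeset of a gene. The number of arrays limits the precision.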

Additional observations from a re-analysis of the deposited data

Results flagged for a closer look

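Of 116 values tested among the 4 Greyhounds, 3 had 1 dog far from the other 3, where chance alone would mark about 1 in 20 such groups. RPS20, on the dim probeset, measured 9.75 in dog 208513, against 7.97 to 8.11 in the other 3 Greyhounds. ERAP1 measured 5.41 in dog 208513, against 7.02 to 7.21 in the other 3. DST measured 7.52 in dog 223986, against 8.65 to 8.73 in the other 3. Without dog 208513 the RPS20 difference was 1.56 and the ERAP1 difference −0.82, and without dog 223986 the DST difference was −0.87. The cause of these values was not tested.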

How the results depend on the processing

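The absence of adjusted calls among probesets above the reporter level held under every alternative fitted. Over all probesets, 4 passed in DFI < 100 dogs alone (NEBL, ZNF879 and 2 without a symbol), 1 in osteoblastic tumors alone, and 0 to 2 when 1 dog was left out (2 without dog 208513 and 1 without dog 223986). The number of probesets more than 2-fold different at an unadjusted p under 0.05 was 126, against 241 in osteoblastic tumors alone, 458 at a fold above 1.5, 19 at a fold above 3, 0 with the highest reporter (13.43) as the level, and 118 to 223 with 1 dog left out (223 without dog 204714, 206 without dog 208756 and 195 without dog 223986). The number without overlap between groups, 10 in all dogs, was 321 in DFI < 100 dogs alone, 176 in osteoblastic tumors alone, 54 in purebred dogs alone and 12 to 70 with 1 dog left out, each of these with fewer dogs to separate. The age difference (−3.29 years) was −2.13 years in DFI < 100 dogs alone and −3.79 to −2.55 years with 1 dog left out, the smallest without dog 184844.

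Of 68 gene differences, 63 kept their sign in DFI < 100 dogs alone and without dog 208513, 2 settings that give the same difference, and all 68 kept it under the other alternatives. The 5 that turned were ACP5 (0.41), CSF1R (0.0524), CD68 (0.71), CTSK (0.20) and MMP9 (0.38), whose differences with 1 dog left out reached from these values down to −4.08, −1.16, −1.71, −1.25 and −1.40 in the same order. As the mean of all probesets above the level, NCOA2 differed by 0.73 and RPS20 by 0.86. No paired analysis was possible because the labels give no replicate numbers that tie a Greyhound to another dog. With 4 Greyhounds, 1 of them in the DFI > 300 cohort, single dogs moved many values by more than 1.5 times.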
